A study of Mus musculus with 8 samples.

Results

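Wild-type (WT) mouse embryonic fibroblasts (MEFs) were compared after 24 h on a stiff or a soft polyacrylamide hydrogel, with 2 RNA-seq libraries on each substrate. The members of this comparison were the 4 WT libraries of 8 in the series, and the genes that reached 1 CPM (a read count scaled to the size of its library) in 2 or more of the 8 libraries, which left 12494 of the 12528 genes listed. The stiff gel had a Young's modulus of about 55 kPa and the soft gel of about 0.2 kPa. The cells were an immortalized WT line, derived together with a Cav1KO line (no caveolin-1) from littermates, so that each genotype stands for 1 line. The Cav1KO libraries, 2 on stiff and 2 on soft under the same conditions, shared the estimate of the spread and served for 1 test, that of the difference in stiffness effect between genotypes. The labels do not say whether the libraries of a group came from separate cultures, so the p-values measure the spread between these libraries only. Fold changes were computed on log2(CPM + 1), positive where stiff was higher, are followed by their standard error after ±, and understate the change of genes with low values. Adjusted p denotes the Benjamini-Hochberg value of limma over all 12494 genes, and a gene was called at or under 0.05. Genes were named by a rule on size within each list, and "further genes" marks those chosen after their values were seen.

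Adherent cells pull on their substrate through integrins, focal adhesions and contractile actomyosin. A stiff substrate resists that pull, which spreads the cell, builds stress fibres and favours nuclear entry of the transcriptional coactivators YAP and TAZ, which act through TEAD factors, and of MRTF, which acts through SRF. On compliant gels fibroblasts round up and slow their cycle, and resting fibroblasts are known for high levels of matrix, growth factor-binding and innate defence transcripts. Bulk RNA cannot separate fewer cells with a transcript from less transcript per cell.

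The WT libraries held 17089836 to 19944952 reads, at which depth 3 reads equalled 0.151 to 0.181 CPM. Cav1, the gene deleted in the other line, stood at 949.8 and 1079 CPM on stiff and 1122 and 1157 CPM on soft. The Cav1 libraries on stiff and soft did not overlap, but the difference did not pass the test (log2 fold change -0.17 ± 0.14, adjusted p = 0.342). Of 10 fibroblast markers 8 were listed, with summed levels of 9350 and 9179 CPM on stiff and 11701 and 11869 CPM on soft, and 6 of the 8 fell on stiff (26.3% of all genes tested fell). None of 7 epithelial or 6 endothelial markers was listed, and 2 of 7 macrophage and leukocyte markers were, with sums of 24.9 and 29.6 CPM on stiff and 40.4 and 35.1 CPM on soft. Cd68 and Cd14 were those 2, and their part in the results below was not tested. Of 6 cartilage and bone markers 3 were listed (Sox9, Col2a1 and Runx2), with 0 called. Their sums were 244 and 212 CPM on stiff and 218 and 265 CPM on soft. Of 6 adipocyte markers 2 were listed, of which Fabp4 was lower. Of 8 skeletal and heart muscle markers only Tnnt2 was listed, and it was higher, at 3.82 and 2.79 CPM on stiff and 1.09 and 0.86 CPM on soft.

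**Figure D1:**
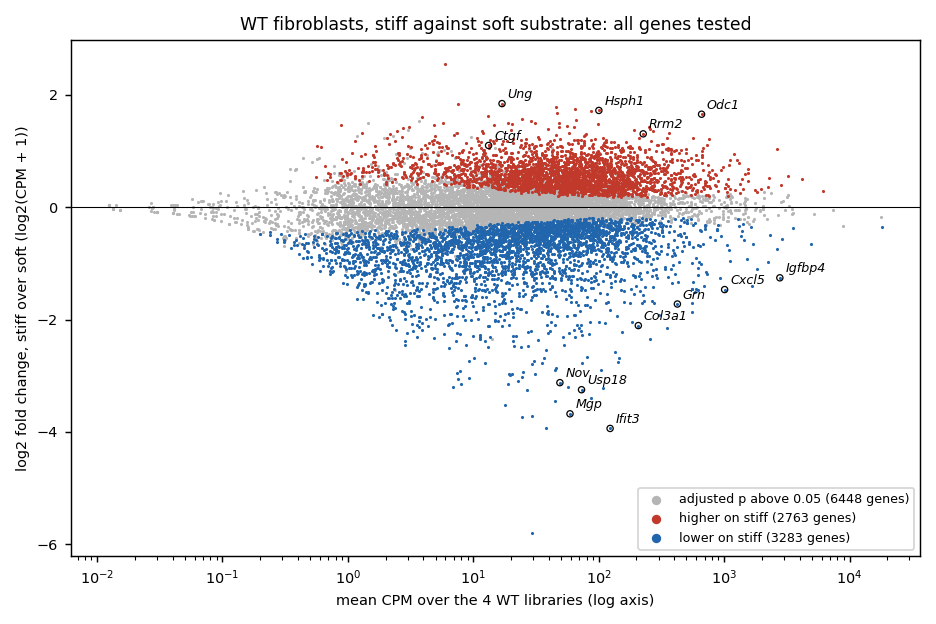
Log2 fold change of stiff over soft (vertical axis) against mean CPM over the 4 WT libraries (horizontal, log axis), 1 point per gene tested, coloured by call, with named genes circled. The 2763 genes higher on stiff stay mostly under a log2 fold change of 1, while the 3283 lower genes reach far below -2; the lowest point is mt-Co2, listed at 0 in WT stiff 1.

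The falls on stiff were larger than the rises. Of the genes tested, 2763 (22.1%) were higher on stiff and 3283 (26.3%) were lower, with median log2 fold changes of 0.56 and -0.67. Which count was greater depended on the scaling: median centring gave 3051 higher and 2898 lower, and quantile normalization 3209 and 2892. At least 2-fold changes were seen in 215 called rises and 836 called falls, and at least 4-fold changes in 1 rise and 119 falls. The genes called higher took 37.4% of all CPM on stiff and 25.6% on soft, and those called lower 18% and 29.3%. WT soft 1 weighed most on these counts: without it 1707 genes were higher and 2206 lower.

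Among the protein-coding genes with the largest rises, most served DNA repair, ribosome assembly, protein folding or polyamine synthesis. Ung, the uracil-DNA glycosylase of base excision repair (chromosome 5, 114130386 to 114139323, GRCm38), stood at 25.3 and 28.8 CPM on stiff and 6.83 and 6.77 CPM on soft, a log2 fold change of 1.85 ± 0.11 (adjusted p = 3.28e-05). Cmah, which hydroxylates sialic acid (chromosome 13, 24327404 to 24477377), stood at 75.7 and 67.3 CPM on stiff and 17.3 and 23.1 CPM on soft (1.79 ± 0.15, adjusted p = 8.12e-05). Odc1, the ornithine decarboxylase that opens polyamine synthesis (chromosome 12, 17544794 to 17551505), stood at 943 and 1065 CPM on stiff and 311 and 323 CPM on soft (1.66 ± 0.089, adjusted p = 2.56e-05). In all 3 genes the lowest stiff library was at least 2-fold above the highest soft library. U90926, of no function named here, rose by 1.62, and Mdn1 and Tcof1, factors of ribosome assembly and of ribosomal RNA transcription, by 1.57 and 1.54. Tcof1 lost its call in 2 of 16 alternative fits. Gm14308 had the largest rise (2.55), but 97.8% of its sequence windows occur in other transcripts, so its reads could belong to a near-identical copy.

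Beside mt-Co2, which was listed at 0 in WT stiff 1 and is given with the mitochondrial genes, the largest falls included immunity-related GTPases, interferon-induced genes and matrix Gla protein. Mgp, an inhibitor of matrix calcification (chromosome 6, 136872435 to 136875823), stood at 7.88 and 7.47 CPM on stiff and 117 and 104 CPM on soft, a log2 fold change of -3.68 ± 0.10 (adjusted p = 1.82e-06). Its stiff and soft pairs were each tight and lay over 10-fold apart. Ifi47 and Irgm2, GTPases of cell-autonomous defence, fell by 3.46 and 3.40 on the log2 scale, and Ifi44, an interferon-induced gene, by 3.23. I830012O16Rik fell by 3.93, Tgtp2 by 3.72 and Tmem140 by 3.52, but 40.8%, 84.4% and 35.7% of their windows are shared with other transcripts. Sned1 fell by 3.26 and overlaps Mterfd2, from which the unstranded reads cannot be told apart.

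**Figure D2:**
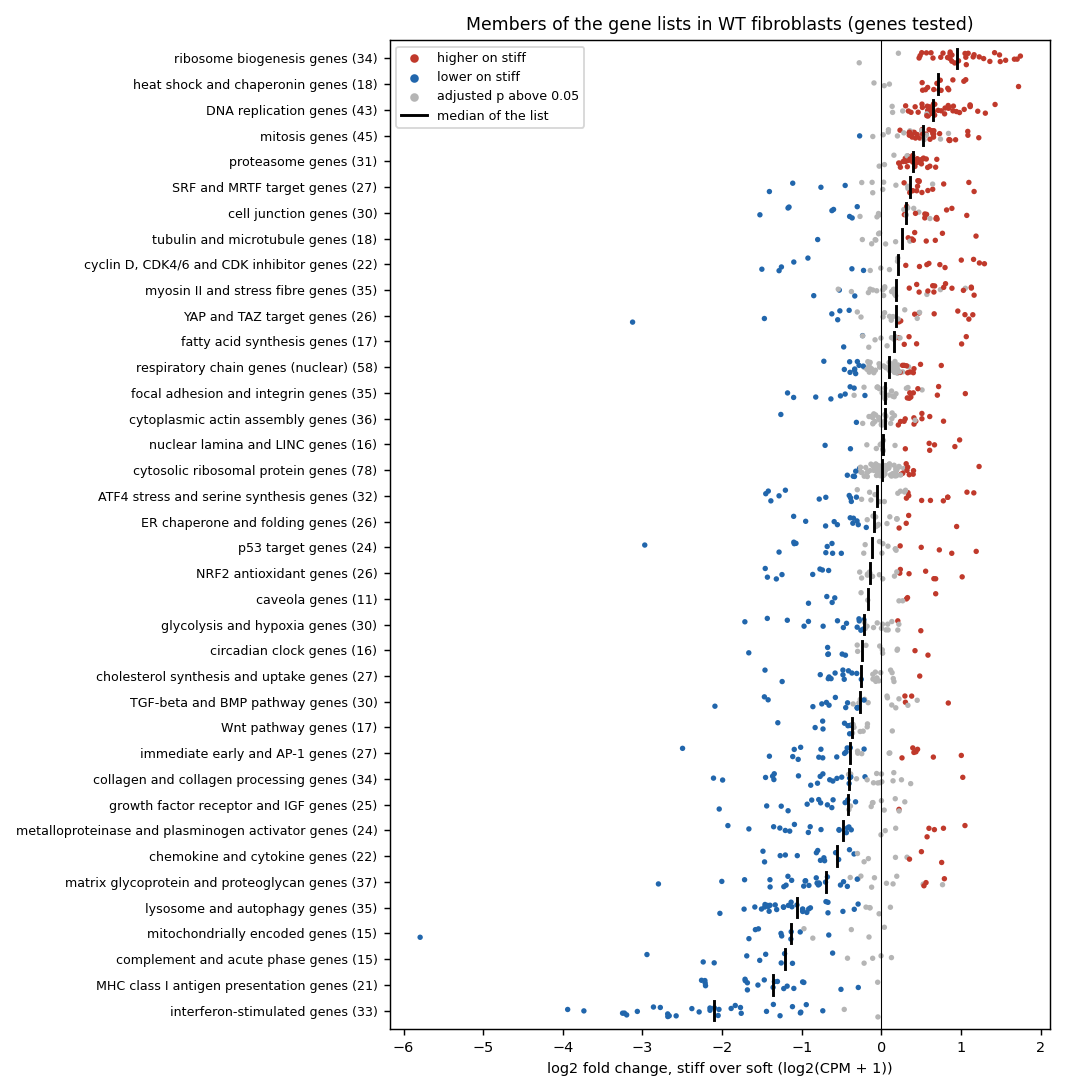
Log2 fold change of stiff over soft (horizontal axis) of every tested member of each gene list (rows, number of members in brackets), coloured by call, with the list's median as a black bar. Ribosome biogenesis lies furthest right, with 32 of 34 members called higher, and interferon-stimulated genes furthest left, with 31 of 33 called lower.

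Genes of the cell cycle rose together on stiff, and inhibitors of the cycle fell. Of 43 DNA replication genes 39 were higher on stiff and 0 lower (median log2 fold change 0.65, against -0.019 over all genes tested). Cdc6, which loads the replicative helicase (chromosome 11, 98907801 to 98923940), stood at 68.2 and 73.0 CPM on stiff and 22.7 and 28.9 CPM on soft (1.43 ± 0.15, adjusted p = 0.000155). Rrm2, the regulated subunit of ribonucleotide reductase (chromosome 12, 24708241 to 24714146), stood at 317 and 327 CPM on stiff and 115 and 146 CPM on soft (1.31 ± 0.11, adjusted p = 6.61e-05). Stiff and soft libraries were well apart in both genes. Mcm10 rose by 1.21, and the further genes Mcm2, of the helicase itself, and Pcna, the polymerase clamp, by 1.12 and 0.60.

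Mitosis genes rose less evenly. Of 45 members 31 were higher on stiff and 1 was lower (median 0.52), but without WT soft 1 only 11 stayed called higher, without WT stiff 1 17 and without WT stiff 2 20. The list's largest rises, in Mki67 (a marker of cycling cells), Smc2 (condensin) and Cenpe (a kinetochore motor), were 1.22, 1.09 and 1.09. Their libraries spread widely: Mki67 stood at 17.6 and 12.7 CPM on stiff and 3.44 and 9.46 CPM on soft. Mki67 had an adjusted p of 0.05 and lost its call in 10 of 16 alternative fits, Smc2 in 4 and Cenpe in 3. The cell cycle homology motif TTTGAA occurred on either strand in 27 of 36 matched RefSeq promoter windows of the list (300 bases, GRCm38.p6), 75%, against 17.9% of all 32851 windows. Of these 27 genes 19 were higher on stiff and 0 lower, with a median of 0.51. Of the 9 without the motif 7 were higher and 1 lower, with a median of 0.52, so the motif did not sort the rises. Cdc25b, a phosphatase that activates CDK1, fell by 0.27 (not called without WT stiff 1), and Cdk1 itself, a further gene, rose by 0.40.

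Of 22 genes of the G1 control 10 were higher on stiff (45.45%, against 22.1% of all genes tested) and 7 lower (31.8%, against 26.3%). The called cyclins, CDKs and E2F activators rose, except the further gene Ccnd2, which fell by 0.22. The called CDK inhibitors fell. Ccnd2 lost its call with the WT libraries alone, without the variance trend and with median centring, among other fits. Ccne2 (cyclin E2) stood at 65.4 and 64.1 CPM on stiff and 22.9 and 29.1 CPM on soft (1.29 ± 0.12, adjusted p = 0.000104). Cyclin D1, Ccnd1, rose by 1.23 and the activator E2f2 by 1.16. Cdkn2b, which encodes the CDK4/6 inhibitor p15, stood at 18.5 and 19.1 CPM on stiff and 59.3 and 50.9 CPM on soft (-1.50 ± 0.12, adjusted p = 7.15e-05). Cdkn2a (p16 and ARF) fell by 1.28, the growth arrest gene Gas1 by 1.25 and the further gene Cdkn1b (p27) by 0.92. Among 16 nuclear lamina genes 6 rose and 2 fell: the B-type lamins Lmnb1 and Lmnb2 rose by 0.98 and 0.92 and the lamin B receptor Lbr by 0.67, while Tor1aip1 and Sun2, proteins of the inner nuclear membrane, fell by 0.71 and 0.39.

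The p53 target list split, with 5 of 24 genes higher on stiff (20.8%, against 22.1% of all genes tested) and 10 lower (41.7%, against 26.3%). Its median was -0.11. Trp53inp1, a stress-induced gene that links p53 to autophagy (chromosome 4, 11156431 to 11174379), stood at 5.32 and 7.35 CPM on stiff and 60.6 and 51.7 CPM on soft, a log2 fold change of -2.97 ± 0.17 (adjusted p = 3.25e-05). Cdkn1a, the CDK inhibitor p21, stood at 7.08 and 6.44 CPM on stiff and 15.2 and 16 CPM on soft (-1.10 ± 0.15, adjusted p = 0.000545). Ddit4, an inhibitor of mTORC1, fell by 1.28. On the other side Aen, a nuclease, rose by 1.19, Plk2, a polo-like kinase, by 0.88 and 9630033F20Rik by 0.73.

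Ribosome biogenesis had the highest median of all lists, 0.95, with 32 of 34 genes higher on stiff and 0 lower. Rrp12, which exports and matures pre-ribosomes (chromosome 19, 41862851 to 41896173), stood at 107 and 93.0 CPM on stiff and 26.3 and 31.8 CPM on soft (1.75 ± 0.13, adjusted p = 4.73e-05). Nolc1, a nucleolar chaperone, stood at 152 and 111 CPM on stiff and 30.9 and 49.7 CPM on soft (1.71 ± 0.28, adjusted p = 0.00149). Utp20 and Heatr1, processome components, rose by 1.67 and 1.56, and the further genes Ncl (nucleolin) and Fbl (fibrillarin) by 1.36 and 0.92. No stiff library lay below a soft library in any of these 6 genes.

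The ribosomal proteins themselves did not move as a list: of 78 genes 9 were higher and 5 lower, with a median of 0.013 that changed sign in 3 alternative fits. Rpl27 stood out, at 284 and 307 CPM on stiff and 127 and 124 CPM on soft (1.23 ± 0.07, adjusted p = 3.16e-05), while Fau and Rpl8 rose by 0.40 and 0.40 and Rpl39, Rps20 and Rpl22 fell by 0.43, 0.35 and 0.34. Ribosomal protein genes have many processed copies, and 22.9% of the windows of Rpl27 are shared. Leaving out 1 library moved the count of higher members to between 4 (without WT stiff 2 or WT soft 1) and 10 (without WT stiff 1), and the count of lower members fell to 1 without WT stiff 1 or WT soft 1.

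Chaperones and the proteasome rose with the ribosome factors. Of 18 heat shock and chaperonin genes, most of them cytosolic, 15 were higher on stiff and 0 lower (median 0.71). Hsph1, an HSP110 nucleotide exchange factor (chromosome 5, 149614287 to 149636376), stood at 175 and 134 CPM on stiff and 40.3 and 51.7 CPM on soft (1.72 ± 0.19, adjusted p = 0.000224). Hspd1, a mitochondrial chaperonin, rose by 1.06, Hsp90aa1 by 1.04 and the further gene Hspa8 by 0.85. Of 31 proteasome genes 27 were higher and 0 lower, with small steps: Psmc4 stood at 145 and 153 CPM on stiff and 88.7 and 94.4 CPM on soft (0.70 ± 0.075, adjusted p = 0.000186), Psmd3 rose by 0.68 and Psmd1 by 0.61. Without WT stiff 2 or WT soft 1 the proteasome count was 17.

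Chaperones of the endoplasmic reticulum (ER) were divided, with 4 of 26 higher (15.4%, against 22.1% of all genes tested) and 11 lower (42.3%, against 26.3%). Hyou1, an ER chaperone of the HSP70 family, rose by 0.95, Manf by 0.34 and Creld2 by 0.31, while Dnajb9, an ER co-chaperone, fell by 1.10, Selk by 0.95 and the oxidase Ero1lb by 0.70. Without WT stiff 1 or WT soft 1 7 were lower, and without WT stiff 2 or WT soft 2 2 were higher.

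Targets of ATF4, the transcription factor of the amino acid response, went in opposite directions. Of 32 members 10 were higher on stiff (31.25%, against 22.1% of all genes tested) and 11 lower (34.4%, against 26.3%), with a median of -0.052. Slc7a5, an importer of large amino acids, stood at 155 and 157 CPM on stiff and 62.8 and 76.4 CPM on soft (1.16 ± 0.092, adjusted p = 6.22e-05). Shmt2 and Psat1, enzymes of one-carbon and serine synthesis, rose by 1.08 and 0.83. Also higher were 3 of the 5 members that charge transfer RNA, the further genes Nars, Gars and Wars (0.34, 0.51 and 0.62). Trib3, a pseudokinase that restrains ATF4 signalling, stood at 9.74 and 9.86 CPM on stiff and 28.0 and 29.1 CPM on soft (-1.45 ± 0.11, adjusted p = 4.73e-05). The stress factor Ddit3 (CHOP) and the lipoprotein receptor Vldlr fell by 1.39 and 1.42, and the glutathione-degrading enzyme Chac1, a further gene, by 1.21.

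The promoters of 3 fallen members are shown because they hold the composite ATF4 motif. RefSeq promoter windows (250 bases before to 50 after the start, GRCm38.p6) were matched for 26 of the 32 members, and TGATGNAA on either strand occurred in 8 of them, 30.8%, against 3.97% of all 32851 windows. Of the 8 genes 4 were lower on stiff and 2 higher, so the letters did not sort the directions. The motif is in capitals, and the 80-base stretches run 5′ to 3′ on the gene's strand.
Trib3, chr2:152344011-152344090, minus strand: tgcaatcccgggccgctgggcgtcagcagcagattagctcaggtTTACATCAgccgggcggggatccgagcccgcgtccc
Vldlr, chr19:27216784-27216863, plus strand: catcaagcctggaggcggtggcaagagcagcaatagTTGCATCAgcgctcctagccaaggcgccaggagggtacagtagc
Chac1, chr2:119351013-119351092, plus strand: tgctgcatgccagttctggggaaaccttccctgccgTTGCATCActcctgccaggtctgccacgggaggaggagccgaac
A match describes the letters and does not show binding.

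Of 17 fatty acid synthesis genes 6 were higher on stiff and 2 lower. Fasn, the fatty acid synthase, stood at 417 and 353 CPM on stiff and 173 and 209 CPM on soft (1.01 ± 0.14, adjusted p = 0.000562). Acaca and Acly, which supply its substrates, rose by 1.07 and 0.44, whereas Acss2 and the desaturase Fads1 fell by 0.47 and 0.24. Without WT soft 1 3 of the list were higher, and without WT stiff 1 or WT soft 1 0 were lower. Acss2 lost its call in 6 of 16 alternative fits.

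Cholesterol genes leaned down, with 14 of 27 lower on stiff and 1 higher (median -0.25). The largest falls were in lipid transport and not synthesis: Npc2, which carries cholesterol out of lysosomes, stood at 275 and 315 CPM on stiff and 908 and 726 CPM on soft (-1.46 ± 0.12, adjusted p = 6.22e-05), and the exporter Abca1 fell by 1.25. Of the synthesis enzymes Tm7sf2 fell by 0.77 and Hmgcs1, a further gene, by 0.47. Without WT stiff 1 or WT soft 1 9 were lower.

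Of 30 glycolysis and hypoxia genes 15 were lower on stiff and 2 higher (median -0.22). The falls were led by hypoxia-inducible genes: Ndrg1 stood at 68.0 and 71.2 CPM on stiff and 166 and 153 CPM on soft (-1.18 ± 0.075, adjusted p = 3.84e-05), Eno2 fell by 1.43 and the mitophagy receptor Bnip3 by 0.92. Hk2, a hexokinase, rose by 0.50 but lost its call without WT stiff 1 or WT soft 1. Gapdh stood at 795 and 831 CPM on stiff and 684 and 725 CPM on soft and passed with an adjusted p of 0.0499, but lost its call in 10 of 16 alternative fits.

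Nuclear genes of the respiratory chain divided evenly, 10 higher and 10 lower of 58. These shares, 17.2% each, lay under the 22.1% and 26.3% of all genes tested. Cyc1, Cox5a and Atp5b rose by 0.75, 0.49 and 0.41, and Ndufa1, Cox6c and Ndufa6 fell by 0.72, 0.46 and 0.40. The higher count dropped to 4 without WT stiff 2 and 6 without WT soft 1 or WT soft 2, and the lower count to 3 without WT stiff 1 or WT soft 1. Genes of the mitochondrial genome were lower on stiff in 10 of 15 cases and higher in 0 (median -1.13), and their summed level was 1304 and 1133 CPM on stiff and 2694 and 1707 CPM on soft. Mt-Co1, an oxidase subunit, fell by 1.66 and mt-Nd4, of complex I, by 1.58. Mt-Co2 was listed at 0 and 0.057 CPM on stiff and at 75.8 and 41.3 CPM on soft, and all of its sequence windows recur in other transcripts, as do 46.5% of those of mt-Co1, so these estimates are uncertain.

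Cytoskeletal genes rose selectively. Of 35 myosin II and stress fibre genes 14 were higher on stiff and 3 lower (median 0.18), but without WT stiff 1 the higher count was 8 and without WT soft 1 7. Tagln, the actin-bundling protein SM22, stood at 151 and 167 CPM on stiff and 67.5 and 73.0 CPM on soft (1.17 ± 0.15, adjusted p = 0.000384), though 56.3% of its windows recur in other transcripts, most often in Gm48529. Pdlim1, an adaptor on stress fibres, stood at 39.4 and 42.0 CPM on stiff and 15.2 and 21.4 CPM on soft (1.13 ± 0.17, adjusted p = 0.00102). Both genes were far above the spread between their libraries, unlike Myh9, the heavy chain of nonmuscle myosin IIA. Myh9 stood at 534 and 355 CPM on stiff and 139 and 284 CPM on soft, had an adjusted p of 0.0433 and lost its call in 8 of 16 alternative fits. Synpo, Myl12b and Pdlim5 fell by 0.85, 0.53 and 0.33.

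Of 36 actin assembly genes 11 were higher and 2 lower, the higher count being 5 without WT soft 1. Pfn1 (profilin), which feeds actin monomers to filaments, stood at 1805 and 1929.7 CPM on stiff and 1179 and 1270.5 CPM on soft (0.61 ± 0.084, adjusted p = 0.000563). Actb rose by 0.51 and the formin Diap3 by 0.78. Gsn (gelsolin), which severs filaments, stood at 169 and 176 CPM on stiff and 440.2 and 390.4 CPM on soft (-1.26 ± 0.084, adjusted p = 4.08e-05), and Arpc3, which lost its call without WT stiff 1 or WT soft 1, fell by 0.31. Of 18 tubulin and microtubule genes 8 rose and 1 fell, with Tubb6 at 0.77, Tubg1 at 0.68, Map1b at 1.19 and Map1lc3a at -0.80. Without WT stiff 2 the tubulin list had 5 higher members and without WT soft 1 4.

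Adhesion genes divided in shares close to those of all genes. Of 35 focal adhesion and integrin genes 9 were higher on stiff (25.7%, against 22.1% of all genes tested) and 9 lower (25.7%, against 26.3%). The median of the list was 0.046. Itga3, a laminin receptor subunit, stood at 70.0 and 62.1 CPM on stiff and 40.1 and 39.2 CPM on soft (0.72 ± 0.11, adjusted p = 0.00112), and Itga6, another laminin receptor subunit, rose by 0.70. Itga11, a collagen receptor subunit, fell by 1.10, Itgb3 by 0.82 and Tns1, a tensin of fibrillar adhesions, by 1.18. Tln1 (talin) rose by 1.06 and lost its call in 2 alternative fits, while Vcl (vinculin), a further gene at 251 and 205 CPM on stiff and 166 and 194 CPM on soft, was not called (adjusted p = 0.156). The higher count was 4 without WT stiff 1 or WT soft 1, and the lower count 4 without WT stiff 1.

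Of 30 cell junction genes 12 were higher (40%, against 22.1% of all genes tested) and 8 lower (26.7%, against 26.3%), with a median of 0.32. Pkp4 (a plakophilin), Mllt4 (afadin) and Cdh3 (P-cadherin) rose by 1.07, 0.82 and 0.69, whereas Jup (plakoglobin), Cdh13 and Cdh11 fell by 1.17, 1.16 and 0.62. The higher count was 4 without WT stiff 1 and 3 without WT soft 1. Of 11 caveola genes 3 were higher (27.3%) and 4 lower (36.4%), against 22.1% and 26.3% of all genes tested. Sdpr, Pacsin2 and Ehd1 rose by 0.68, 0.33 and 0.32, and Murc, Pacsin3 and Prkcdbp fell by 0.91, 0.68 and 0.62. Without WT stiff 1 or WT soft 1 only 1 caveola gene was higher.

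**Figure D3:**
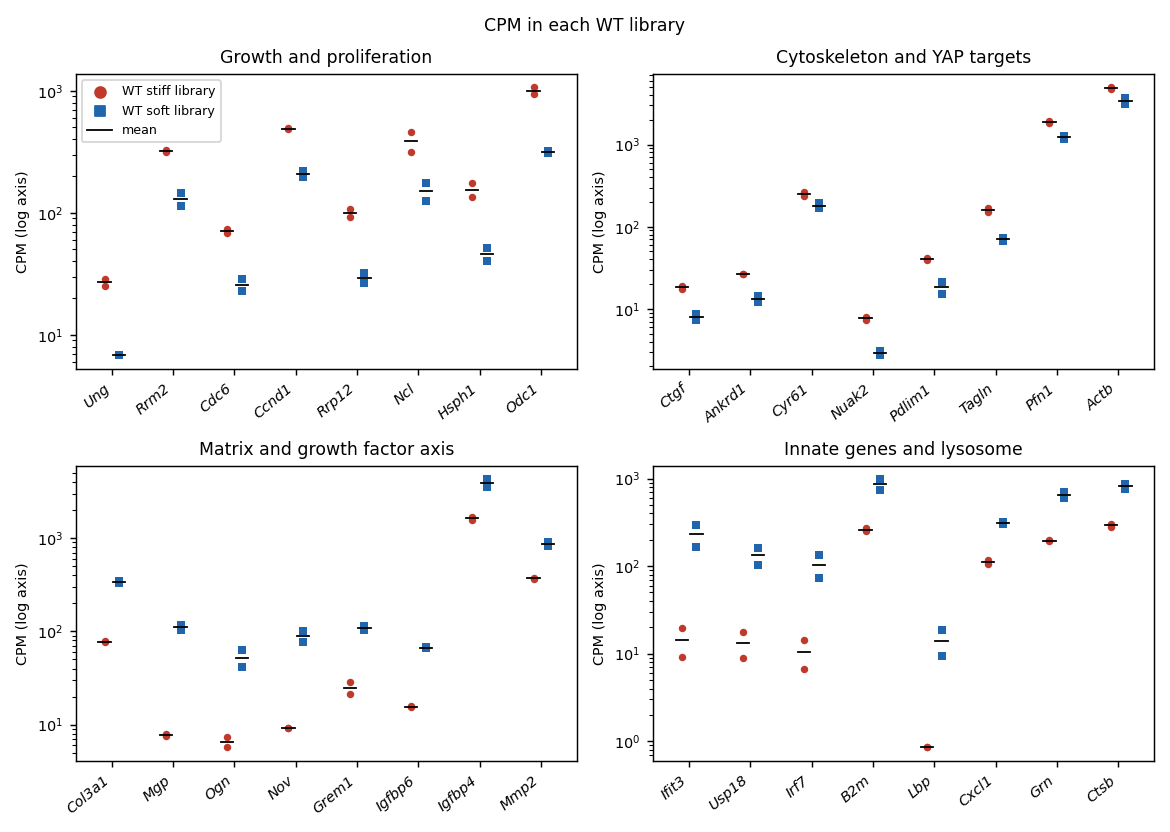
CPM in each WT library (vertical, log axes) for 8 genes in each of 4 groups, with stiff libraries as circles, soft libraries as squares and group means as bars. In all 32 genes the stiff and soft libraries do not overlap; upper panels lie higher on stiff and lower panels higher on soft.

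Most of the called SRF and MRTF targets rose. Of 27 members 14 were higher on stiff and 4 lower (median 0.36). Beside Tagln, the smooth muscle genes Cnn1 and Acta2 (a further gene) rose by 0.78 and 0.47. The further gene Egr2 fell by 0.76, and so did Fosb and Fos (by 1.41 and 1.11), which the list of immediate early genes also holds, and Tgfb1i1, a focal adhesion adaptor (by 0.45).

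Immediate early and AP-1 genes leaned down, with 15 of 27 lower on stiff (55.6%, against 26.3% of all genes tested). The 7 higher genes made up 25.9%, against 22.1%, and the median was -0.39. Atf3, a stress-induced repressor (chromosome 1, 191170296 to 191218039), stood at 3.62 and 2.85 CPM on stiff and 21.9 and 23.8 CPM on soft (-2.50 ± 0.22, adjusted p = 8.62e-05). Dusp5, a phosphatase of ERK that ERK induces, stood at 65.0 and 71.3 CPM on stiff and 31.7 and 35.2 CPM on soft (1.0 ± 0.10, adjusted p = 0.000157). Fosl1 and Egr3 rose by 0.65 and 0.46. The further gene Myc, which drives ribosome and nucleotide synthesis genes, stood at 167 and 158 CPM on stiff and 112 and 134 CPM on soft (0.41 ± 0.096, adjusted p = 0.00792). Without WT stiff 1 or WT soft 1 4 of the list were higher.

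Of 26 YAP and TAZ targets 9 were higher on stiff (34.6%, against 22.1% of all genes tested) and 6 lower (23.1%, against 26.3%). The median of 0.18 ran from 0.094 (without WT stiff 1) to 0.22 (without WT stiff 2) over the alternative fits. Ctgf, the matricellular protein CCN2 (chromosome 10, 24595442 to 24598683), stood at 19.2 and 17.6 CPM on stiff and 7.43 and 8.71 CPM on soft (1.10 ± 0.18, adjusted p = 0.00138). Nuak2, a kinase that feeds back on Hippo signalling (chromosome 1, 132316126 to 132333488), stood at 7.33 and 8.04 CPM on stiff and 2.72 and 3.12 CPM on soft (1.15 ± 0.14, adjusted p = 0.000296). Both lay at least 2-fold higher in each stiff library than in either soft library. Ankrd1, a nuclear ankyrin repeat protein, stood at 27.0 and 26.7 CPM on stiff and 12.2 and 14.5 CPM on soft (0.96 ± 0.13, adjusted p = 0.000541), and Cyr61 (CCN1) rose by 0.47. Among the members that fell was Nov (CCN3, chromosome 15, 54745702 to 54754039), from the same family as Ctgf and Cyr61, at 9.19 and 9.23 CPM on stiff and 100.66 and 77.0 CPM on soft (-3.12 ± 0.12, adjusted p = 1.07e-05). Tgfb2 and Igfbp3 fell by 1.47 and 0.62, the latter a carrier of IGF.

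TEAD motifs in the promoters of this list are shown because the members that hold them did not include any that fell. Windows were matched for 17 members, and GGAATG on either strand occurred in 8, 47.1%, against 14.7% of all 32851 windows. Of the 8 genes 5 were higher on stiff and 0 lower, with a median of 0.23, while of the 9 without it 0 were higher and 5 lower, with a median of -0.40. These counts were not tested. Ankrd1, Cyr61 and Crim1, a further gene that rose by 0.42, are printed with the motif in capitals.
Ankrd1, chr19:36119925-36120004, minus strand: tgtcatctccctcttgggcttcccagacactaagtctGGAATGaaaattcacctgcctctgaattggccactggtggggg
Cyr61, chr3:145650046-145650125, minus strand: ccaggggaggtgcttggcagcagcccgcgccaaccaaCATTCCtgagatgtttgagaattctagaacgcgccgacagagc
Crim1, chr17:78200132-78200211, plus strand: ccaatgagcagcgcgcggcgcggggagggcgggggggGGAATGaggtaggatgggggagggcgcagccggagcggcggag
Windows without these letters may hold other forms of the motif, and enhancers were not searched.

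Matrix genes were mostly lower on the stiff substrate. Of 34 collagen genes 19 fell and 1 rose (median -0.40). Col3a1, a fibrillar collagen (chromosome 1, 45311538 to 45349706), stood at 78.2 and 76.3 CPM on stiff and 346 and 327 CPM on soft (-2.11 ± 0.16, adjusted p = 5.85e-05). Col6a1 and Col18a1 fell by 1.45 and 1.35. Col8a1, a short-chain collagen, was the 1 that rose, at 12.6 and 10.4 CPM on stiff and 4.71 and 5.53 CPM on soft (1.02 ± 0.17, adjusted p = 0.00136). The chains of type I collagen, further genes, parted: Col1a2 fell by 0.65, while Col1a1 stood at 2612 and 2515 CPM on stiff and 2035 and 2273 CPM on soft and was not called (adjusted p = 0.211).

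Of 37 matrix glycoprotein and proteoglycan genes 24 were lower and 3 higher (median -0.70). Ogn (osteoglycin, chromosome 13, 49608046 to 49624501) stood at 5.73 and 7.30 CPM on stiff and 62.6 and 41.5 CPM on soft (-2.80 ± 0.20, adjusted p = 4.42e-05). Mfap2, a microfibril protein, and Matn2 fell by 1.72 and 1.40. The 3 that rose were Lamb1 (laminin), Fbn1 (fibrillin) and Ltbp1, by 0.79, 0.56 and 0.54, and each lost its call without WT stiff 1 or WT soft 1. The further gene Fn1 (fibronectin) stood at 1524 and 1316 CPM on stiff and 1582 and 1896 CPM on soft and was not called (adjusted p = 0.238).

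Of 24 metalloproteinase and plasminogen activator genes 16 were lower (66.7%, against 26.3% of all genes tested) and 5 higher (20.8%, against 22.1%). Mmp2, a gelatinase, stood at 376 and 369 CPM on stiff and 904 and 821 CPM on soft (-1.21 ± 0.097, adjusted p = 6.55e-05). Adamts1 and the protease inhibitor Serpine2 fell by 1.66 and 1.27, and Adam12 and urokinase (Plau) rose by 0.78 and 0.67. Without WT stiff 1 or WT soft 1 3 were higher.

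Growth factor pathways held more falls than rises. Of 30 TGF-beta and BMP genes 14 were lower and 4 higher. Grem1, a secreted antagonist of BMP, stood at 28.4 and 21.5 CPM on stiff and 103 and 114 CPM on soft (-2.09 ± 0.17, adjusted p = 6.87e-05). Tgfbi, a TGF-beta-induced matrix protein, fell by 1.42, and Skil and Smad2, nuclear effectors, rose by 0.38 and 0.30. The higher count was 2 without WT stiff 1 or WT stiff 2 and 1 without WT soft 1, and Smad2 was not called when the trend with transcript length was removed.

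Of 17 Wnt pathway genes 8 were lower and 0 higher, the lower count being 5 without WT soft 1. Dkk3, a secreted modulator, fell by 1.30, the receptor Fzd1 by 0.83 and the ligand Wnt5a by 0.73. Of 25 growth factor receptor and IGF genes 14 were lower and 1, the receptor kinase Axl (0.22), higher, and Axl lost its call without any 1 of the 4 WT libraries. IGF-binding proteins led the falls. Igfbp6 (chromosome 15, 102144362 to 102149511) stood at 15.4 and 15.7 CPM on stiff and 66.6 and 67.4 CPM on soft (-2.04 ± 0.13, adjusted p = 3.91e-05), Igfbp2 fell by 1.44, and the abundant Igfbp4 stood at 1567 and 1705 CPM on stiff and 4284 and 3566 CPM on soft (-1.26 ± 0.11, adjusted p = 8.8e-05).

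Innate defence genes showed the largest fall of all lists. Of 33 interferon-stimulated genes 31 were lower on stiff and 0 higher (median -2.10), and their summed level was 1204 and 1516 CPM on stiff and 5473 and 3783 CPM on soft. WT soft 1 carried more of these transcripts than WT soft 2, and without it 30 of the list remained lower. Ifit3, an RNA-binding antiviral protein (chromosome 19, 34583531 to 34588731), stood at 9.24 and 19.7 CPM on stiff and 297 and 167 CPM on soft (-3.94 ± 0.35, adjusted p = 8.62e-05), with 47.0% of its windows found in other transcripts, most often in its copy Ifit3b. Usp18, which removes ISG15 and damps the receptor, stood at 8.99 and 17.8 CPM on stiff and 161 and 104 CPM on soft (-3.25 ± 0.30, adjusted p = 9.64e-05). Iigp1 fell by 3.74, and the transcription factor Irf7, a further gene, by 3.20.

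Promoters of interferon-stimulated genes are shown because the same motif runs through the list. Windows were matched for 24 members, and GAAANNGAA, the core of the interferon-stimulated response element, occurred on either strand in 16 of them, 66.7%, against 8.56% of all windows. All 16 were lower on stiff, as were 7 of the 8 without it, with medians of -2.22 and -1.56. Igtp, a further gene and an immunity-related GTPase, fell by 2.86.
Ifit3, chr19:34583391-34583470, plus strand: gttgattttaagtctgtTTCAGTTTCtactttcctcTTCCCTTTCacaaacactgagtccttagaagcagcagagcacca
Ifi44, chr3:151749870-151749949, minus strand: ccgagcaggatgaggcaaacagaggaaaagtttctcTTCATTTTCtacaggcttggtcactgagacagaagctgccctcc
Igtp, chr11:58199486-58199565, plus strand: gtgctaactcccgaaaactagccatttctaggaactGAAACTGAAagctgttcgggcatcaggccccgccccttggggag

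Antigen presentation, complement and chemokine genes followed. Of 21 MHC class I genes 20 were lower on stiff and 0 higher (median -1.36). H2-T23, a nonclassical class I gene, stood at 44.3 and 60.9 CPM on stiff and 309 and 194 CPM on soft (-2.22 ± 0.23, adjusted p = 0.00016). Psmb9, an immunoproteasome subunit, fell by 2.26, against the rise of the constitutive proteasome, H2-Q4 by 2.21, and the further genes B2m and H2-K1 by 1.71 and 1.71. Of 15 complement and acute phase genes 10 were lower and 0 higher. Lbp, which binds bacterial lipopolysaccharide, stood at 0.854 and 0.855 CPM on stiff and 18.7 and 9.35 CPM on soft (-2.94 ± 0.24, adjusted p = 6.87e-05). C1s1 and Hp (haptoglobin) fell by 2.24 and 2.10, while C3, a further gene at 129 and 97.2 CPM on stiff and 98.4 and 148 CPM on soft, was not called (adjusted p = 0.779).

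Of 22 chemokine and cytokine genes 14 were lower on stiff and 3 higher (median -0.56), the higher count being 0 without WT soft 1 and 2 without WT stiff 1 or WT stiff 2. Cxcl1 and Cxcl5 attract neutrophils. Cxcl1 (chromosome 5, 90891241 to 90893115) stood at 105 and 117 CPM on stiff and 321 and 304 CPM on soft (-1.49 ± 0.086, adjusted p = 3.25e-05), and Cxcl5 stood at 494 and 577 CPM on stiff and 1607 and 1357 CPM on soft (-1.47 ± 0.11, adjusted p = 4.73e-05). Il6 fell by 1.27. Csf1, the macrophage growth factor, and Ptx3, a soluble pattern receptor, rose by 0.50 and 0.35.

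Most lysosomal genes fell: of 35 lysosome and autophagy genes 30 were lower on stiff and 0 higher (median -1.06). Grn (progranulin, chromosome 11, 102430315 to 102437048), a lysosomal regulator, stood at 199.7 and 192 CPM on stiff and 708 and 595 CPM on soft (-1.72 ± 0.091, adjusted p = 2.56e-05). The further gene Ctsb (cathepsin B) stood at 306 and 279 CPM on stiff and 864 and 758 CPM on soft (-1.46 ± 0.094, adjusted p = 3.85e-05). Ctsf and the sialidase Neu1 fell by 2.03 and 1.59, and Lamp1, a further gene and a membrane protein of the lysosome, by 0.70.

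NRF2 targets also divided. Of 26 genes 7 were higher on stiff (26.9%, against 22.1% of all genes tested) and 8 lower (30.8%, against 26.3%). Gsr, Gclm and Txnrd1, which make or recycle reduced glutathione and thioredoxin, rose by 1.02, 0.68 and 0.66. The glutathione transferases Gstm2, Gstm1 and Gsta4 fell by 1.46, 1.43 and 1.32, and of the further genes catalase (Cat) by 0.86, Nqo1 by 0.77 and the ferritins Fth1 and Ftl1 by 0.66 and 0.74. Of 16 clock genes 2 were higher and 6 lower (3 without WT soft 1): Rora, a nuclear receptor, stood at 7.13 and 5.87 CPM on stiff and 25.6 and 20.2 CPM on soft (-1.66 ± 0.15, adjusted p = 9.73e-05), Bhlhe41 and Dbp fell by 0.67 and 0.67, and Hlf and Clock rose by 0.59 and 0.42. Without WT stiff 1 0 clock genes were higher and without any other 1 of the WT libraries 1. Hlf and Clock each lost their call in 4 and 4 of 16 alternative fits. Shares of the clock list were 12.5% higher and 37.5% lower, against 22.1% and 26.3% of all genes tested.

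The stiffness effect of WT cells was then set against that of Cav1KO cells by the interaction term of the fit. The effect was larger, that is more toward stiff, in WT for 559 genes (4.47%) and smaller for 750 genes (6.0%). These counts rested on single libraries: leaving out 1 of the 8 libraries gave 36 (without Cav1KO soft 1) to 1747 (without Cav1KO stiff 1) larger and 74 to 1689 smaller. Of the 2763 genes higher on stiff in WT, 2055 were also called higher in Cav1KO and 40 were called lower there. Of the 3283 lower genes, 2123 were called lower in both and 65 higher in Cav1KO. All 40 and 65 of these opposite calls passed the interaction test. Opposite calls in the same fit make that all but certain, so it is no separate evidence.

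Cxcl1, Il6 and the p21 gene Cdkn1a moved in opposite directions in the genotypes. The chemokine and cytokine list as a whole did not: its medians in WT and Cav1KO were -0.56 and -0.16, with 2 of 22 effects larger and 8 smaller in WT. Cxcl1 in Cav1KO cells stood at 223 and 253 CPM on stiff and 165 and 167 CPM on soft, a log2 fold change of 0.52 against -1.49 in WT, and the difference was -2.0 (adjusted p = 0.00127). Il6 changed by 1.32 in Cav1KO and -1.27 in WT (difference -2.59, adjusted p = 0.00161). Cdkn1a changed by 0.98 and -1.10 (difference -2.07, adjusted p = 0.00286). In all 3 the WT libraries were lower on stiff and the Cav1KO libraries higher.

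Among the 67 named genes with an interaction call, 26 had effects of opposite sign in the genotypes. Other differences, such as those of Mgp and Ccnd1, were of size. Mgp fell by 3.68 in WT against a change of -2.42 in Cav1KO (difference -1.26, adjusted p = 0.00438). Ccnd1 rose by 1.23 in WT against 0.45 (difference 0.78, adjusted p = 0.00726). Bnip3, which fell in WT, changed by 0.011 in Cav1KO (difference -0.93, adjusted p = 0.0104). By list, the effect was smaller in WT for 19 of 27 cholesterol genes, 11 of 26 NRF2 targets and 12 of 30 glycolysis and hypoxia genes. The same held for 10 of 32 ATF4 targets and 9 of 31 proteasome genes. It was larger for 16 of 35 myosin and stress fibre, 15 of 37 matrix glycoprotein and proteoglycan and 14 of 34 collagen genes. Medians in WT and Cav1KO were -0.25 and 0.51 for the cholesterol list and 0.18 and -0.39 for the myosin list.

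**Figure D4:**
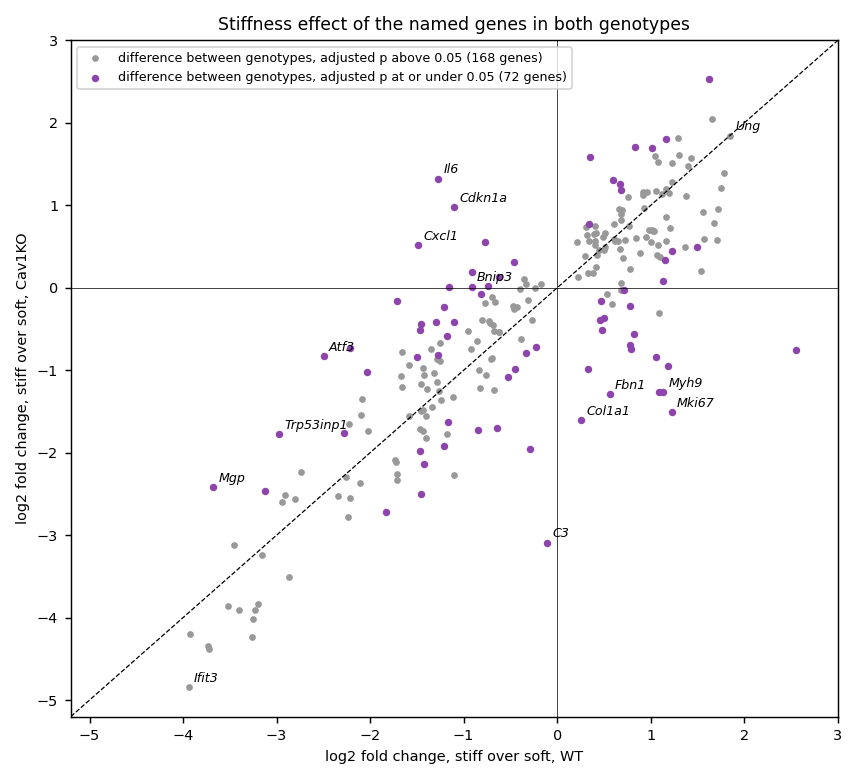
Log2 fold change of stiff over soft in Cav1KO (vertical axis) against that in WT (horizontal axis) for the genes named with values, mt-Co2 left out, with the line of equal effects dashed. Purple points passed the interaction test; Cxcl1, Il6 and Cdkn1a lie left of 0 in WT and above 0 in Cav1KO.

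Transcript length moved with the libraries and with this comparison. The genes with a larger effect in WT had a median transcript length of 5386 bases, those with a smaller effect 2695 and the uncalled genes 3319. Transcripts of 9000 bases or more deviated from their gene means by a median of 0.24 in WT stiff 1 and -0.083 in WT stiff 2, and by -0.19 in WT soft 1 and -0.035 in WT soft 2. In the Cav1KO libraries the same class deviated by -0.0096 and -0.43 on stiff and by 0.34 and 0.19 on soft. Its median log2 fold change was 0.18 in WT and -0.48 in Cav1KO. Myh9, Tln1, Map1b, Mki67, Cenpe and Fbn1 have transcripts of 7433, 8393, 11808, 10061, 7910 and 11971 bases. Each kept its call in WT and in the interaction when every library's average trend with length was removed. The part of length in a single gene's value beyond that trend was not tested. Within WT the genes called higher and lower had similar median lengths, 3372 and 3159 bases, but the share called lower varied with length. It was 29.8% from 1500 to under 3000 bases and 12.2% at 9000 bases or more. The shares called higher in these classes were 22.6% and 20.3%. With each library's trend with length removed 3111 genes were higher and 3392 lower in WT, with 692 and 792 in the interaction.

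**Figure D5:**
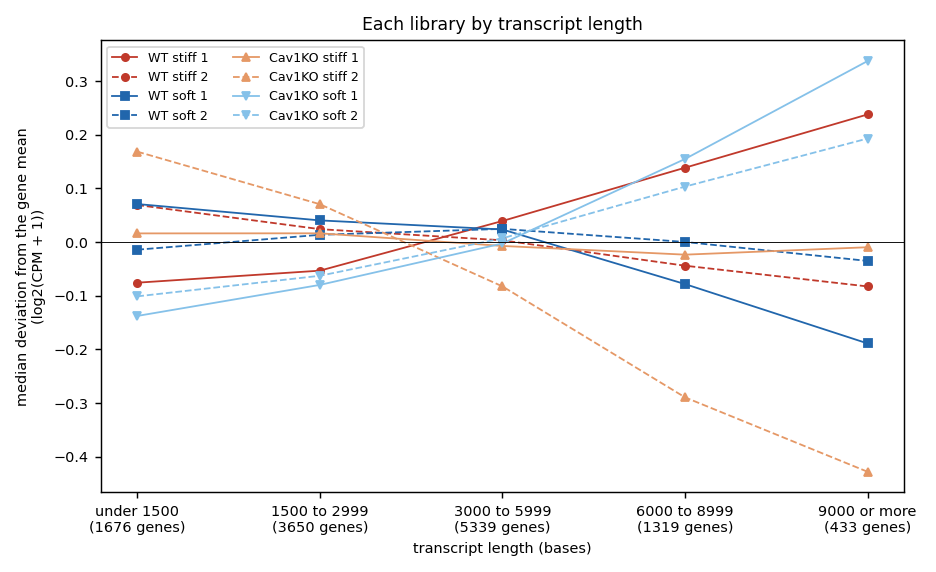
Median deviation from the gene mean on log2(CPM + 1) (vertical axis) in 5 classes of transcript length in bases (horizontal axis), 1 line per library. Libraries of 1 group part at the long end, with WT stiff 1 at 0.24 and WT stiff 2 at -0.083 for 9000 bases or more.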

How the data were processed

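Total RNA of WT and Cav1KO MEFs, 500 ng per library, was made into poly(A) libraries with a kit that does not mark strand and sequenced as single reads of 60 bases. Per the labels and processing notes, the authors used CASAVA 1.8.2, cutadapt and RSEM 1.2.3 against GRCm38, and a low-expression filter (1 CPM, 2 libraries). The deposited values are TMM-normalized CPM, treated here as a normalized signal and not as counts, since the columns do not share 1 total. All values in each column (tolerance 0.01) were whole multiples of 1 read's worth, so read counts could be recovered (17089836 to 19944952 reads per WT library).

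Values were fitted as log2(CPM + 1) in all 8 libraries with 4 group means and 4 residual degrees of freedom by limma 3.58.1 (variance trend on mean) in R 4.3.3, adjusted by Benjamini-Hochberg over 12494 genes. With 2 libraries against 2, an exact permutation test of 1 gene cannot reach 0.05, so the limma fit across genes was used. edgeR 4.0.16 and DESeq2 1.42.0 on the recovered reads, 2 pseudocounts, 2 filters, 2 scalings, no variance trend, WT libraries alone, a replicate block, a transcript-length correction and leaving out each library were the alternatives. limma, edgeR and DESeq2 were each tested on simulated data. Of the listed genes 12451 matched GENCODE M21, which gave positions, lengths (1 transcript per gene) and overlaps. Shared windows are those of a transcript also found in transcripts of other genes.

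The gene lists and named genes were chosen with earlier results of these data known. Named were the 12 largest called rises and falls among protein-coding genes with a WT mean of at least 5 CPM, up to 3 of each in every list with the same minimum, Cav1, Ctgf, Ankrd1 and Cyr61. Some genes that this rule names are not reported here.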

Additional observations from a re-analysis of the deposited data

Results flagged for a closer look

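A stiffness effect that differed between WT and Cav1KO cells, by the interaction term of the limma fit, was what marked each result here. Among the genes named with values 67 passed at an adjusted p of 0.05, 35 with a larger (more positive) and 32 with a smaller effect in WT; 5 further ones were left out because a library was listed at 0. In brackets stands the effect in WT minus that in Cav1KO on the log2 scale. A gene that fell further in WT, such as Mgp (-3.68 against -2.42 in Cav1KO), thus counts as a smaller effect.

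Of the lists, myosin and stress fibre genes had 16 of 35 larger effects, focal adhesion genes 8 of 35, actin assembly genes 2 of 36 and mitosis genes 3 of 45, against 4.47% of all genes tested. Matrix lists came near the myosin list, with 15 of 37 matrix glycoprotein and proteoglycan genes and 14 of 34 collagen genes. Cytoskeletal, adhesion and mitosis genes with a larger effect were Myh9 (2.39), Map1b (2.14), Tln1 (1.89), Vcl (1.32), Mllt4 (1.38), Synpo (0.88), Myl12b (0.55), Pdlim5 (0.46), Itga3 (0.75), Jup (0.45), Cnn1 (1.0), Acta2 (0.99), Tgfb1i1 (0.54), Mki67 (2.73) and Cenpe (2.35). Matrix and protease genes with a larger effect were Col1a1 (1.86), Fbn1 (1.85), Fn1 (1.66), Lamb1 (1.53), Adam12 (1.48), Col1a2 (1.05), Col6a1 (1.04), Mmp2 (0.72) and Tgfbi (0.71). Others were Gm14308 (3.30), C3 (2.98), Upp1 (1.0), Fbxo32 (0.89), Csf1 (0.87), Egr3 (0.85), Nuak2 (0.82), Ccnd1 (0.78), Cyr61 (0.63), Ctsb (0.51) and Ccnd2 (0.50).

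A smaller effect was found for 6.0% of all genes tested and for 8 of 22 chemokine and cytokine genes. It was also found for 19 of 27 cholesterol genes, 11 of 26 NRF2 targets and 9 of 31 proteasome genes. By contrast, interferon-stimulated genes had 3 larger and 0 smaller effects and complement genes 6 and 0. Medians in WT and Cav1KO were -2.10 and -2.67 for the interferon list and -1.215 and -1.685 for the complement list. By median, both lists thus fell less in WT. Smaller effects in WT were seen for the immune genes Il6 (-2.59), Cxcl1 (-2.0), H2-T23 (-1.48), Ptx3 (-1.23) and Cxcl5 (-0.96), for genes of stress, growth control and amino acid supply, Cdkn1a (-2.07), Atf3 (-1.67), Trp53inp1 (-1.20), Trib3 (-1.01), Chac1 (-0.97), Psat1 (-0.88), Btg1 (-0.74), Pcna (-0.72), Slc7a5 (-0.64), Cdkn2b (-0.66), Dnajb9 (-0.69), Klhl24 (-0.53), Manf (-0.43) and Lbr (-0.59), and for secreted and metabolic genes, Mgp (-1.26), Igfbp6 (-1.01), Bnip3 (-0.93), U90926 (-0.91), Hmgcs1 (-0.78), Gsr (-0.68), Nov (-0.66), Ndrg1 (-0.59), Gclm (-0.50), Serpine2 (-0.46), Nqo1 (-1.33), Ftl1 (-0.76) and Murc (-1.10).

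The effects had opposite signs in 26 of the 67 genes. With edgeR 58 passed and with the trend with transcript length removed 61. In 11 genes the test was passed whichever of the 8 libraries was left out: Gm14308, Mgp, Cdkn1a, Hmgcs1, Col1a1, Fbn1, C3, Cxcl1, Il6, Ptx3 and Nqo1. Median transcript lengths were 5016 bases for the larger and 2164 bases for the smaller effects.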

How the results depend on the processing

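Against 2763 rises and 3283 falls, the pseudocounts, low-value filters, scalings, variance models, WT libraries alone and count tools tried gave 2442 to 3209 rises and 2692 to 3286 falls. Requiring at least 2-fold left 215 and 836, by construction. Leaving out 1 WT library gave 1707 to 2363 rises and 2206 to 2875 falls, the fewest without WT soft 1, where 1 sample is assumed to vary like the other groups. The share of the calls also called with the same sign ran from 64.0% (without WT soft 1) to 99.98%. Median centring shifted the median of all genes by 0.042 and quantile normalization by 0.071 (log2). Under both scalings rises outnumbered falls, at 3051 against 2898 and 3209 against 2892. With the replicate number as a block (replicate block), 2767 genes were higher and 3213 lower, with 569 and 755 in the interaction. The numbers were not taken to pair the samples: over the 6 pairs of groups same-numbered libraries deviated with correlations from -0.37 (WT stiff and WT soft) to 0.42 (WT stiff and Cav1KO stiff), of which 2 were over 0.1, and the crossed pairing, added after seeing the data, called 3299 higher and 3675 lower.

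The interaction was less stable: its 559 larger and 750 smaller effects became 314 and 391 without the mean-variance trend and 361 and 541 with edgeR, and 36 to 1747 and 74 to 1689 when 1 library was left out; the cause was not tested. The uncalled C3 ran from -0.40 to 0.18 (log2) over the left-out WT libraries. The length correction was added after seeing the data. The depth of 3 reads, 0.151 to 0.181 CPM, limits genes under about 1 CPM, and 2 libraries a group limit all of them.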

Other observations

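The genes named below were chosen after their values were seen, and their functions are background. Beside Odc1, further genes of polyamine and nucleotide synthesis were higher on stiff. Srm, the spermidine synthase, stood at 361 and 384 CPM on stiff and 134 and 149 CPM on soft (1.39 ± 0.075, adjusted p = 2.56e-05). Eif5a, the translation factor that carries a modification made from spermidine, stood at 3329.9 and 3798 CPM on stiff and 1662 and 1791 CPM on soft (1.04 ± 0.11, adjusted p = 0.000184). Cad, the entry enzyme of pyrimidine synthesis, rose by 1.38, and Ppat and Pfas, enzymes of purine synthesis, by 0.92 and 1.16. Tfrc, the transferrin receptor, stood at 785 and 791 CPM on stiff and 314 and 359 CPM on soft (1.23 ± 0.08, adjusted p = 3.91e-05), and Upp1, a uridine phosphorylase, rose by 1.5.

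The following 7 genes were picked because they were lower on stiff, as were 26.3% of all genes tested. Klhl24, a ubiquitin ligase adaptor, stood at 23.5 and 25.4 CPM on stiff and 133 and 114 CPM on soft (-2.28 ± 0.095, adjusted p = 1.38e-05). Pik3ip1, an inhibitor of PI3 kinase, stood at 5.83 and 8.84 CPM on stiff and 59.3 and 48.4 CPM on soft (-2.73 ± 0.17, adjusted p = 3.84e-05). Mxd4, an antagonist of MYC, fell by 1.73, Ypel3 by 2.23, Fbxo32 by 1.84, the unconventional cyclin Ccng2 by 1.34 and the antiproliferative gene Btg1 by 0.82. Stiff and soft libraries did not overlap in any of these 7 genes. A further 3, picked in the same way, encode membrane proteins. Mme (neprilysin, a membrane peptidase) stood at 21.5 and 25.4 CPM on stiff and 209 and 158 CPM on soft (-2.91 ± 0.16, adjusted p = 2.95e-05), Ly6a (Sca-1) fell by 2.34, and Gpnmb, a lysosomal and surface glycoprotein, by 3.15.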
